A study of Mus musculus with 2 samples.

Results

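Expression of 10 germline genes, Dazl, Ddx4, Mael, Stk31, Stra8, Sycp1, Sycp3, Hormad1, Slc25a31 and Tex101, was examined in Baf53a-deficient mouse ES cells kept alive by Baf53a or by its homologue Baf53b. The genes were taken by name, as genes of the germ cells of testis and ovary that are held to be repressed in ES cells. The rule uses no signal, though earlier results of these data were known. They are 10 of the 20823 genes that could be named on the array through a RefSeq accession. Hormad1 had 2 probes and each of the others had 1, which gives 11 probes, each printed as 1 spot.

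Both samples came from 1 clone of Tet-inducible Baf53a conditional knockout ES cells, derived from the E14 line. Its only intact Baf53a was a transgene recoded to resist CRISPR/Cas9, which had disrupted both endogenous alleles, and tetracycline (Tet) turned this transgene off. The cells received a pCAGIP-Myc vector for Baf53a or for Baf53b, and Tet at 1 μg/mL was added 48 h after this transfection and kept for 6 days, in medium with serum and LIF. One pair of RNA samples was hybridised, so that there was 1 array of Baf53a-expressing cells and 1 array of Baf53b-expressing cells, both on the same slide. The differences thus lack replicates and were not tested, and differences of culture, transfection or labelling cannot be told apart from the exchange of Baf53a for Baf53b. Neither germ cells nor untransfected ES cells were on these arrays. In RNA from a whole culture, fewer cells that express a gene and less RNA per cell cannot be told apart.

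Germline genes run the programme that makes eggs and sperm: proteins that bind RNA and guard germ cells against transposons, the switch into meiosis, and the scaffold on which paired chromosomes recombine. In other lineages many of them are kept silent by methylation of their CpG-rich promoters and by PRC1.6, a form of Polycomb repressive complex whose MGA and MAX subunits bind the E-box CACGTG and whose E2F6 and DP1 subunits bind E2F sites. ES cells rely on the same repressors, and loss of PRC1.6 subunits or of DNA methylation is known to raise several of these genes there.

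The promoters were therefore read first. In the 250 bases before the annotated start, 7 of the 10 genes held the E-box CACGTG, which reads the same on both strands. Of the 27025 mouse genes with a promoter in the same RefSeq table, 6.04% did. The 10 genes were chosen as repressed in ES cells, so this share describes that choice and not germline genes at large. The matches are printed with 12 bases on each side, 5′ to 3′ along the strand of the gene, with the E-box in capitals, because this short element is what most of the genes share. Coordinates are of GRCm38.p6.
Ddx4, chr13:112652322-112652351, minus strand: ggcgtccgcccgCACGTGcagccgtttaag
Mael, chr1:166238950-166238979, minus strand: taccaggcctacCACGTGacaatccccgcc
Stk31, chr6:49395472-49395501, plus strand: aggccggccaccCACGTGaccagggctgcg
Sycp1, chr3:102936177-102936206, minus strand: tagagaacccggCACGTGggaagggaaatc
Slc25a31, chr3:40708766-40708795, plus strand: cgcaactggaaaCACGTGttatggtcacat
Hormad1, distal, chr3:95559608-95559637, plus strand: caaagggtgcgcCACGTGccagtgacagtt
Hormad1, proximal, chr3:95559645-95559674, plus strand: atgcgcactgcgCACGTGctgaccggagcg
Sycp3, distal, chr10:88459511-88459540, plus strand: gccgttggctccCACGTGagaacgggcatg
Sycp3, proximal, chr10:88459532-88459561, plus strand: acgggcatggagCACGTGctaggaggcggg

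The 9 E-boxes lay near the start in most genes. The first base of the match stood 29 bases before the start in Ddx4, 55 in Stk31, 93 in Slc25a31 and 94 in Sycp1. In Hormad1 the pair stood at 57 and 20 bases and in Sycp3 at 64 and 43 bases. Mael had its match farthest upstream, at 223 bases. The promoters of Dazl, Stra8 and Tex101 held no CACGTG within this window, which says nothing about sequence outside it.

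The E2F core TCCCGC, searched on both strands, was found in 4 of the 10 promoters, against 16.9% of all genes. These 4 genes also held an E-box, and the matches of the 2 motifs did not overlap. They are printed the same way, with the core in capitals, and in 3 of them it lies on the opposite strand and reads GCGGGA.
Ddx4, chr13:112652429-112652458, minus strand: tccgtccatgggGCGGGAagtcgcgcgccg
Mael, chr1:166238870-166238899, minus strand: gctcctcctcccTCCCGCcccctccgcccc
Hormad1, chr3:95559570-95559599, plus strand: gcgcagcttttgGCGGGAatagtggtctgg
Sycp3, chr10:88459428-88459457, plus strand: aaggaaggaacaGCGGGAaagtgctgcttc

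The promoters were also rich in CpG. The 250 bases held a median of 18 CpG over the 10 genes, from 5 in Stra8 to 31 in Ddx4, against a median of 6 over all genes. Among the 13822 genes whose promoters held between 5 and 31 CpG, 8.50% had the E-box and 26.5% the E2F core. Of other germline genes, the E-box was found in 7 of 17 promoters of germ cell RNA and piRNA pathway genes (41.2%), in 3 of 18 of other genes of testis or oocytes (16.7%) and in 2 of 25 of other meiotic chromosome genes (8%). The E2F core ran in another order, with 11.8%, 33.3% and 48% of the same lists. The 7 RNA pathway genes with an E-box were Boll, Fkbp6, Mov10l1, Piwil1, Pld6, Tdrd1 and Tdrd9. A match is a description of letters, and binding was not measured here.

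**Figure D1:**
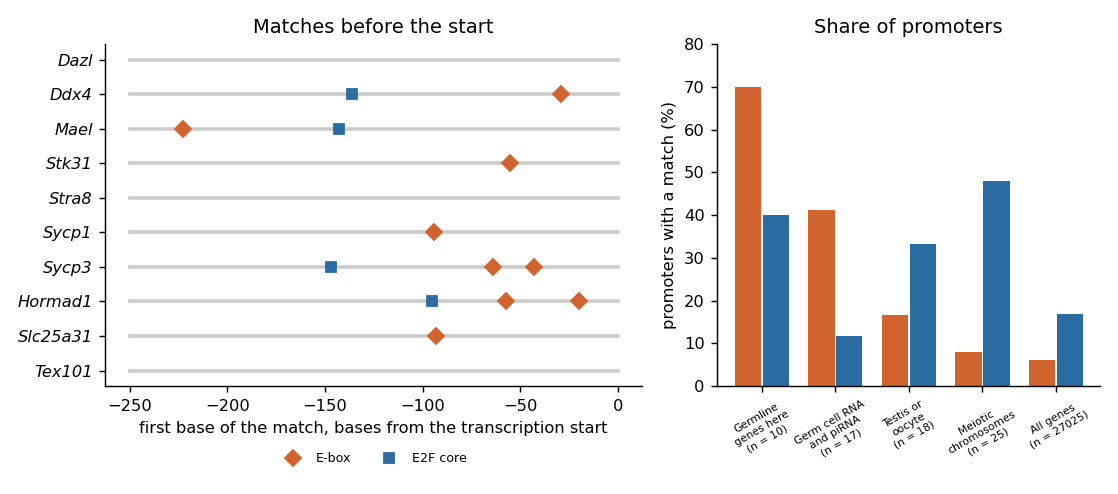
Left, the first base of each E-box (diamonds) and E2F core (squares) in bases from the annotated start, for the 250 bases before the start of each of the 10 genes. Right, the percent of promoters with a match to the E-box (orange) or the E2F core (blue) in 4 lists of germline genes and in all 27025 genes; the E-box bar is highest for the 10 genes described here, at 70.0%.

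On the arrays, the 10 genes gave signal above background in both samples. All 11 probes were well above background on both arrays, as were 74.2% of the 39411 probes with a usable spot. The processed signal, which is the brightness of a spot after background subtraction and spatial detrending, ran from 149.9 to 3377 over the 11 probes. The lowest signal that still counted as well above background was 8.45 with Baf53a and 9.75 with Baf53b. Negative-control spots, 153 of 1 control probe, had a median signal of 2.24 and 2.13. On the array of Baf53a-expressing cells 5 of these spots were well above background and the highest read 80.4, while on the other array there were 0 and the highest read 6.60. That the genes are repressed in ES cells was not borne out as absence of signal, and how far they lie below germ cells was not measured.

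**Figure D2:**
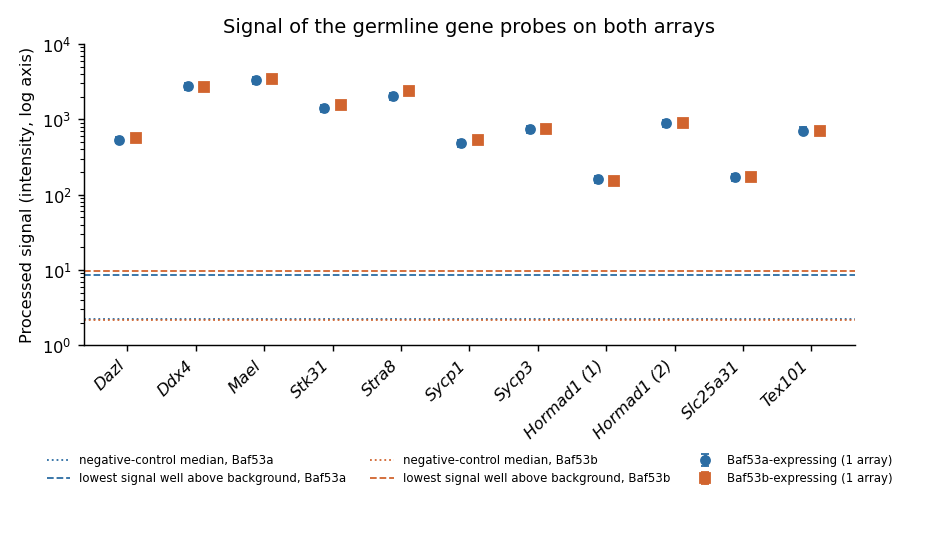
Processed signal (log axis) of the 11 probes of the 10 germline genes on the array of Baf53a-expressing (circles) and Baf53b-expressing cells (squares); bars are the error that the scanner software gives for a spot. All points lie between 149.9 and 3377, above the dashed lines at 8.45 and 9.75 (lowest signal well above background) and the dotted lines at 2.24 and 2.13 (negative-control median). Heights of different probes are not comparable.

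Among the genes for proteins that act on RNA, Dazl encodes a germ cell protein that binds mRNA and promotes its translation. Its signal was 533 ± 53.3 (error given by the scanner software for the spot) in Baf53a-expressing cells and 558 ± 55.9 in Baf53b-expressing cells. With each array scaled to 0 at its 75th percentile, its log2 difference, Baf53b- minus Baf53a-expressing cells, was 0.11, which is smaller than the error of the difference from the same software, 0.20. Ddx4, the mouse Vasa homologue and an RNA helicase of germ granules, read 2730 ± 273 and 2703 ± 270, a difference of 0.027. Mael, which takes part in the silencing of transposons through piRNA, read 3275 ± 328 and 3377 ± 338, a difference of 0.086. Stk31, a germ cell protein with a Tudor and a kinase domain, read 1410 ± 141 and 1568 ± 157, a difference of 0.20. With this scaling none of these 4 genes differed by more than the error of the difference. Stk31 did so with quantile normalization (0.207), cyclic loess (0.217) and normexp (0.227), against an error of 0.204.

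Stra8, which germ cells switch on in response to retinoic acid on their way into meiosis, had the largest difference of the 10 genes. Its signal was 2025 ± 203 in Baf53a-expressing cells and 2363 ± 236 in Baf53b-expressing cells, a ratio of 1.17 before scaling. The log2 difference was 0.26, or 1.20-fold. With this scaling it was the 1 probe of the 11 whose difference exceeded the error of the difference, 0.20, which 18.7% of all single-spot probes did. It also exceeded 2 times the SD of all probes of like brightness, 0.124, as did 5.32% of all probes. With the arrays centred on the median the difference of Stra8 was 0.21, which is below 2 times that SD. No replicate bears on it.

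Sycp1, Sycp3 and Hormad1 serve the axis on which meiotic chromosomes pair. Sycp1 encodes the transverse filament of the synaptonemal complex and read 483 ± 48.4 in Baf53a-expressing cells and 535 ± 53.5 with Baf53b, a log2 difference of 0.19. Sycp3, a component of the lateral elements, read 736 ± 73.6 and 737 ± 73.7, a difference of 0.045. Hormad1, a HORMA domain protein of unpaired chromosome axes, was read by 2 probes. One gave 159.7 ± 16.1 and 149.9 ± 15.1, a difference of -0.049, and the other 890 ± 89.0 and 889 ± 88.9, a difference of 0.040. The probes of Hormad1 thus pointed in opposite directions, with both values inside the error.

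The last pair of genes serves germ cells in other ways. Slc25a31 encodes the ADP/ATP carrier of germ cell mitochondria. Its signal was 169.8 ± 17.1 and 171.6 ± 17.3, a difference of 0.057. Tex101, a glycoprotein on the germ cell surface, read 708 ± 70.9 and 689 ± 69.0, a difference of 0.0027. The order of its processed signals turned with scaling, since the 75th percentile stood at 1161 with Baf53a and at 1128 with Baf53b. The same holds for Ddx4 and for the brighter probe of Hormad1.

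As a group, 0 of the 11 probes differed by at least 2-fold, a call that fell on 0.253% of the 29247 probes measured well above background in both samples. All 11 lay within 0.3 on the log2 scale, as did 89.0% of all probes, and 7 lay within 0.1, as did 48.9%. Above the 75th percentile of both arrays stood 4 of the 11, the probes of Ddx4, Mael, Stk31 and Stra8. So did 9731 of the 29247 probes well above background in both samples, the set to which all 11 belong. Of all 39411 probes with a usable spot, undetected ones included, these are 24.7%. With the 75th percentile set to 0, 10 of the 11 probes were higher in Baf53b-expressing cells, against 49.7% of all probes, but only 6 were when the arrays were centred on the median, where the share of all probes was 37.5%. The signs of Ddx4, Sycp3, Tex101 and the brighter probe of Hormad1 changed with the normalization, for all but Tex101 only by centring on the median, which lowers every difference by the same 0.051. Those of Dazl, Mael, Stk31, Stra8, Sycp1, Slc25a31 and the dimmer probe of Hormad1 were the same under all 7 normalizations run. Of these normalizations, that with outlier spots kept and the authors' own values nearly repeat the main values. The median difference of the 11 probes was 0.057, against -0.0013 over all probes.

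**Figure D3:**
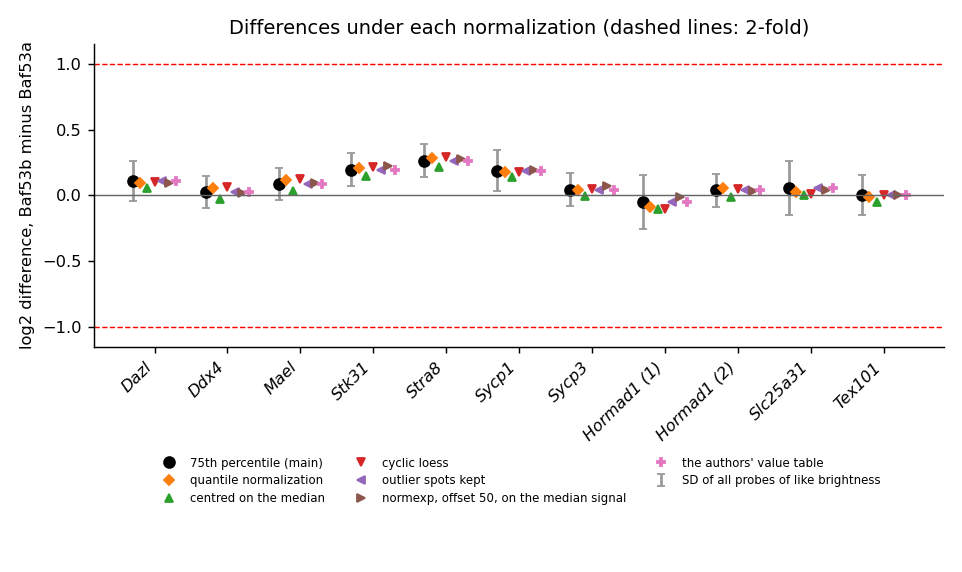
The log2 difference, Baf53b- minus Baf53a-expressing cells, of each of the 11 probes under 7 normalizations (symbols), with grey bars for the SD of all probes of like brightness around the main value and dashed lines at 2-fold. No point reaches 2-fold; Stra8 lies between 0.21 and 0.30, while Ddx4, Sycp3, Tex101 and Hormad1 (2), the brighter of its probes, lie on both sides of 0.

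The spread of all probes depended on brightness, and so the members were read beside probes of like signal. Those well above background in both samples were divided into 5 groups of equal size from dim to bright. All 11 probes fell in groups 2, 3 and 4, counted from the dimmest, where the SD of the difference was 0.208, 0.154 and 0.124. The probes of Stk31, Stra8 and Sycp1 were the 3 that exceeded the SD of their own group, as did 29.3% of all probes. The median difference of these groups was 0.054, 0.019 and -0.019, and 9 of the 11 probes stood above the median of their group. Those that did not were the dimmer probe of Hormad1 and the probe of Tex101.

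**Figure D4:**
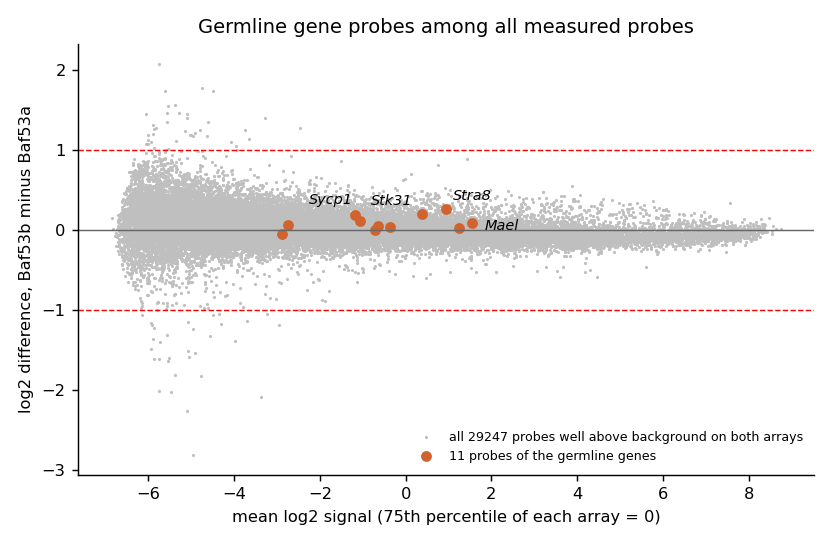
The log2 difference, Baf53b- minus Baf53a-expressing cells, against the mean log2 signal of all 29247 probes well above background on both arrays (grey) and of the 11 germline gene probes (orange), with the 75th percentile of each array at 0 and dashed lines at 2-fold. The germline gene probes lie between -0.049 and 0.26, inside the cloud of probes of like brightness.

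Other germline genes showed a mix of directions. In these lists a gene with several probes was given the mean over those well above background on both arrays, which 79.8% of the 20823 named genes had. Of 16608 such genes, 0.193% were at least 2-fold apart and 49.1% were higher in Baf53b-expressing cells. Of 21 genes of the germ cell RNA and piRNA pathway, 20 had a probe and 17 were measured on both arrays. Of these, 9 were higher and 8 lower, or 14 and 3 after normexp background correction. Their median was 0.052, against -0.0032 over all named genes, and 0.00047 with the arrays centred on the median. Ddx25, an RNA helicase of spermatids, differed by 0.31. Piwil2, a PIWI protein that binds piRNA, differed by -0.27, and Tdrd1, a Tudor protein of germ granules, by -0.26, a value that ran up to 0.00086 under the other normalizations. The probe of Tdrd1 was dim, at 15.4 with Baf53a and 12.5 with Baf53b. Its difference lay inside the SD of its brightness group, 0.324. Tdrd6 and Nanos2 were well above background on neither array, and Asz1 only in Baf53b-expressing cells, where its lower bound was 1.04-fold.

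Of 32 other meiotic chromosome genes, 29 had a probe and 27 were measured on both arrays, 12 higher and 15 lower, with a median of -0.053. After normexp 14 were higher and 13 lower, with a median of 0.0011. With the arrays centred on the median 7 were higher and 20 lower, with a median of -0.10. Majin, which tethers telomeres to the nuclear envelope, differed by -0.39, Hfm1, a helicase needed for crossovers, by 0.39, and Mei4, which takes part in making double-strand breaks, by 0.26. Over the 7 normalizations Majin ran from -0.46 to -0.18 and Mei4 from 0.17 to 0.26. The difference of Mei4 lay inside the SD of its brightness group, the dimmest, 0.324. Spo11, the enzyme that cuts the DNA in meiosis, and Sycp2, the partner of Sycp3 in the lateral element, were well above background on neither array.

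Of 19 other genes of testis or oocytes, 18 were measured on both arrays, 5 higher and 13 lower, with a median of -0.065. Tuba3b, a testis α-tubulin, differed by -0.35. Its near-identical copy Tuba3a may share signal with it and differed by -0.30. Hspa2, a heat shock protein of spermatocytes, differed by 0.33, and Dpep3, a membrane dipeptidase of testis, by -0.32, with a range of -0.41 to -0.13 over the normalizations. The difference of Dpep3 lay inside the SD of its brightness group, the dimmest, 0.324. Nobox, a homeobox factor of oocytes, was well above background on neither array. In none of these 3 lists was a gene 2-fold apart or past a 2-fold bound, which 0.466% of all named genes were, 0.312% of them by a bound. Over these 3 lists 7 of 74 probes (9.46%) exceeded 2 times the SD of their brightness group, against 5.32% of all probes. They were 1 of 18 RNA pathway probes (5.56%), of Ddx25, and 1 of 34 meiotic probes (2.94%), of Hfm1. The rest were 5 of 22 probes of testis or oocyte genes (22.7%), namely those of Tuba3b, Hspa2 and Brdt and both probes of Tuba3a.

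All 8 regulators of primordial germ cells, the embryonic founders of the germline, were measured, 5 higher and 3 lower, with a median of 0.12. Prdm1, which represses the somatic programme, differed by 0.27, Dppa3, a marker of these cells, by 0.21 and Tfap2c, a transcription factor of the same network, by 0.20. Among the lower genes were Nanos3, at -0.19, and Ifitm3, at -0.15. Past 2 times the SD of their brightness group lay 0 of the 8 probes of this list, against 5.32% of all probes. Nanos3 and Dnd1 stand in this list and in that of the RNA pathway.

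Of the repressors of germline genes, all 14 genes of PRC1.6 were measured, 8 higher and 6 lower in Baf53b-expressing cells, with a median of 0.014. When the arrays were centred on the median, 4 were higher and 10 lower, with a median of -0.037. E2f6 differed by 0.041, or -0.010 with that centring, Mga by -0.034, and Max, its partner on the E-box, by -0.054. Over the 7 normalizations Mga ran from -0.085 to -0.019 and Max from -0.10 to -0.0071. L3mbtl2, a subunit that binds chromatin, had a difference of 0.34, from a scaled log2 level of -0.67 with Baf53a to -0.32 with Baf53b, above 2 times the SD of its brightness group, 0.124, as 1 of 18 PRC1.6 probes (5.56%) against 5.32% of all probes. The next in size were the catalytic RING proteins Rnf2, at -0.097 with a range of -0.15 to -0.050, and Ring1, at -0.090, which turned to 0.014 under another normalization. All 13 genes for DNA and H3K9 methylation were measured as well, 5 higher and 8 lower, with a median of -0.018. This list also holds Tet1 and Tet2, which act in DNA demethylation, so its counts and median pool opposing activities. With cyclic loess 7 were higher and 6 lower, with a median of 0.00094. With the arrays centred on the median 1 was higher and 12 were lower, with a median of -0.069. Hells, a remodeller needed for DNA methylation, differed by -0.19, Dnmt1, the maintenance methyltransferase, by -0.093, and Dnmt3l, a cofactor of de novo methylation, by 0.066. The values of Dnmt1 ran from -0.14 to -0.065 and those of Dnmt3l from 0.015 to 0.13 over the normalizations. None of the 27 genes was 2-fold apart. All genes with an E-box in the promoter, 1035 of those measured, had a median difference of -0.0079, and the 12158 without one -0.0062.

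**Figure D5:**
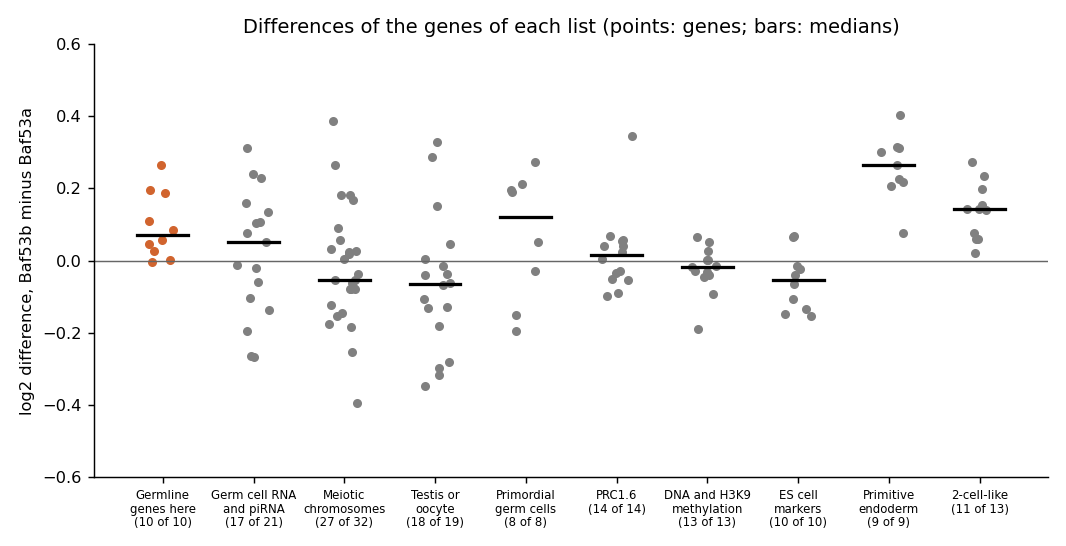
The log2 difference, Baf53b- minus Baf53a-expressing cells, of each gene (points) and the median (bars) in 10 lists, with the number of genes measured on both arrays of those in the list under each name. The 10 germline genes lie between -0.0049 and 0.26, and every gene drawn lies within 0.5 of 0, as do 97.7% of the named genes measured on both arrays. With the arrays centred on the median every point moves down by 0.051, so that the signs of small values turn.

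The labels and cell types were checked on the same arrays. The gene for Baf53b, Actl6b, gave a signal of 3.40 with Baf53a, which is not well above background, and of 119 with Baf53b. It was thus at least 14.5-fold higher with Baf53b, set against the lowest signal well above background on the other array, and at least 2.86-fold after normexp. The gene for Baf53a, Actl6a, read 3806 and 3600, a difference of -0.038 that turned to 0.0016 with cyclic loess. Where its probe lies was not determined, so that it may read the mutated transcript as well as the vector and checks neither label. All 10 ES cell markers, among them Pou5f1, Sox2, Nanog and Esrrb, were well above background on both arrays, with a median difference of -0.053, 2 higher and 8 lower. The median was -0.014 with quantile normalization and -0.012 with cyclic loess, with 5 higher and 5 lower under both, and -0.012 after normexp. With the arrays centred on the median it was -0.10, with 2 higher and 8 lower markers. Their summed signal was 236521 with Baf53a and 213866 with Baf53b before scaling, or 203.7 and 189.6 times the 75th percentile of the array. Zfp42 added most to these sums, in which a gene's part depends on its probes and is no measure of its level against other genes.

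Markers of primitive endoderm and of the 2-cell-like state were mostly or all higher with Baf53b, while those of neurons and of gonad somatic cells were mixed, and summed signals are given before scaling, with the mean over the probes of a gene. All 9 primitive endoderm markers were higher in Baf53b-expressing cells, as were 49.1% of all named genes measured. Their median was 0.27 and their summed signal 27716 against 32854, of which Lama1 gave 22007 and 26327. Past 2 times the SD of their brightness group lay 4 of their 11 probes (36.4%), against 5.32% of all probes. So did 2 of 15 probes of 2-cell-like markers, 2 of 9 of neuron markers, 1 of 9 of gonad markers and 0 of 14 of ES cell markers. All 11 markers of the 2-cell-like state with a probe were higher as well, or 10 with the arrays centred on the median, with a median of 0.14 and sums of 269656 and 278193, to which Zscan4f added most with Baf53a and Gm4340 with Baf53b. Some of the latter, such as the Zscan4 genes, have close copies that can add to 1 another's signal. Neuron markers, of which 8 of 9 were measured, had 5 higher and 3 lower, or 4 and 4 with quantile normalization, and a median of 0.18, or 0.073 with quantile normalization. Their sums were 44512 and 43141, to which Stmn2, with a difference of -0.20, added most, and Dcx was below the flag with Baf53a. Of 9 markers of gonad somatic cells with a probe, 7 were measured, 4 higher and 3 lower, with a median of 0.028, or the reverse counts and -0.023 with the arrays centred on the median, and with sums of 23611 and 21693. Foxl2 added most to them through 1 of its 2 probes, which read 32552 and 30350 while the other read 75.2 and 70.0. Amh, which marks Sertoli cells, was well above background on neither array, and Sox9 was not in Baf53a-expressing cells. Gata4, with a difference of 0.22, stands in this list and in that of primitive endoderm. The part of these cell states in the values of the germline genes was not tested.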

How the data were processed

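RNA of 2 samples, 1 per condition, was labelled with Cy3 and hybridised to 1-colour Agilent mouse arrays. The authors extracted the scans with Feature Extraction 11.0.1.1, named in the submitters' processing notes, and deposited each spot's intensity, background-subtracted and spatially detrended, with an error and flags for each. The array design was annotated on mm9. A table of 30488 values was deposited by the authors as well, each a ratio of a probe's signal to 1 number per array, 1160 and 1126, which is close to the 75th percentile.

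Control spots and outlier spots (173 and 143) were left out, log2 signals were averaged per probe, and each array was set to 0 at its 75th percentile. At least 50% of a probe's spots had to be flagged as well above background. No spot was saturated. Of 39429 gene probes, 27427 were named through an accession in a RefSeq table of GRCm38.p6, used for names only since its build differs. Neither probe sequences nor their position in the transcript were used here. Promoters came from a RefSeq table of the same build, 1 per gene with the most upstream start listed.

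With 1 array per condition, and so 2 arrays in all, no test was run. The number of arrays limits the precision. The error of a signal is the scanner software's and covers the spot alone. The genes and lists were chosen with earlier results of these data known. Named were all 10 genes, the genes for Baf53a and Baf53b, and of each other list any gene past 2-fold and the 3 with the largest difference by size. Genes of the lists outside this rule (those not above background, those with an E-box, Tuba3a, Brdt, Nanos3, Dnd1, Ifitm3, E2f6, Mga, Max, Tet1, Tet2 and the markers) were named after their values were seen. Alternatives were quantile normalization, the median, cyclic loess, outlier spots kept, normexp with an offset of 50 on the median signal, the authors' table, no filter and other detection rules. Python 3.11.15, numpy 2.4.6, pandas 2.3.3, R 4.3.3 and limma 3.58.1 were used, and the steps were tested on simulated data.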

Additional observations from a re-analysis of the deposited data

How the results depend on the processing

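No paired analysis was possible because each condition had a single array, which also left no replicate to omit. Normexp was run on the median signal, since the mean signal was not used here. Under the 6 other normalizations 0 of the 11 probes of the germline genes reached 2-fold, and each of the 66 values stayed within 1 spot SD of its main value. This SD, of repeated spots at similar brightness, was 0.119, 0.080 and 0.066 in groups 2, 3 and 4 of 5. For many of the 66 values this could not be otherwise. With 1 spot per probe, outlier spots kept and the authors' table nearly repeat the main values. Centring on the median moves each value by the same 0.051, below each of these SDs. Only quantile normalization, cyclic loess and normexp could move the probes apart from each other. All 11 stayed detected with the weaker flag, with all spots flagged and with outlier spots kept. With 1 spot per probe, already well above background, these rules could not undo a detection, so the outcome was fixed beforehand. The median difference of the 11 ranged from 0.0063, with the arrays centred on the median, to 0.070 with normexp. Relative to the median of all probes under the same setting it ranged from 0.042 with normexp to 0.065 with cyclic loess. The median of the meiotic genes ranged from -0.10 to 0.0011, of PRC1.6 from -0.037 to 0.021 and of DNA and H3K9 methylation genes from -0.069 to 0.00094, while the medians of the other 3 lists did not change sign, at -0.12 to -0.022 for testis or oocyte genes, 0.00047 to 0.094 for RNA pathway genes and 0.070 to 0.14 for primordial germ cell regulators. Centring on the median lowers every difference by 0.051. Relative to the median of all probes, the medians of PRC1.6 (-0.0065 to 0.020) and of the methylation genes (-0.057 to 0.0057) lay on both sides of 0 over the 7 normalizations, and that of the meiotic genes did not (-0.052 to -0.024).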
